A study of Mus musculus with 4 samples.

Results

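The transcriptional output of 10 circadian clock genes was examined in double positive (DP) thymocytes, the stage of T cell development that carries both CD4 and CD8, with and without Tox4. The genes were Per1, Per2, Per3, Cry1, Cry2, Nr1d1, Nr1d2, Dbp, Clock and Bhlhe40. They were taken by name from the deposited table of 24984 genes, and all 10 were found. TTchem-seq was used, in which transcripts that took up 4-thiouridine over a brief labelling are fragmented, enriched and sequenced, so that introns count and the signal follows synthesis rather than the amount of stable mRNA. There were 2 wild-type (WT) libraries, labelled Tox4;F/F, in which both Tox4 alleles carry loxP sites and no Cre is present. There were 2 conditional knockout (cKO) libraries, labelled Tox4;F/F;Lck+, in which Cre under the proximal Lck promoter removes exons 4 to 6 of Tox4 from the double negative stage onwards. Per the study's methods the mice were littermates of the same sex, 6 to 8 weeks old. The floxed allele was made in C57BL/6 eggs, and no strain is stated there for the Lck-Cre line. Neither group carried Cre without the floxed alleles. The cells spent 0.5 h in fresh culture medium before labelling. The hour at which each mouse was killed is not given in the sources used here, so every library is given by itself.

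The clock of mammalian cells is a transcriptional feedback loop. The proteins CLOCK and BMAL1 (gene Arntl) bind E-box sequences and activate the Period (Per) and Cryptochrome (Cry) genes, whose products then inhibit CLOCK and BMAL1. A further loop runs through the nuclear receptors REV-ERB (Nr1d1, Nr1d2), which repress Arntl, and ROR (Rora), which activates it at the same elements, while DBP acts on D-boxes of output genes and BHLHE40 competes at E-boxes. Per1 and Bhlhe40 also respond quickly to extracellular signals in many cells.

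Elements of this loop can be read in the promoters. The RefSeq windows of GRCm38.p6, which run from 250 bases before to 50 bases after an annotated start, were searched on both strands for the E-box CACGTG, its variant CACGTT, the D-box TTATGTAA, its variant TTATGCAA, the cyclic AMP element TGACGTCA and the ROR half-site TAGGTCA. Windows were held for 8 of the 10 genes, 11 windows in all, and none was held for Per2 or Bhlhe40. The stretches below are those with a match upstream of the start, with the motif in capitals, written along the strand of the gene, where AACGTG is CACGTT on the other strand.
Per1, E-box, first base 166 bases before the start, chr11:69098773-69098798, plus strand: cacccaagtcCACGTGcagggatgtg
Per1, D-box variant, 24 bases before the start, chr11:69098915-69098942, plus strand: gggcctggcaTTATGCAAcccgcctccc
Per3, D-box, 205 bases before the start, chr4:151044853-151044880, minus strand: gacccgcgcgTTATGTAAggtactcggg
Per3, D-box, 158 bases before the start, chr4:151044806-151044833, minus strand: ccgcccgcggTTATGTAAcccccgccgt
Cry1, E-box, 60 bases before the start, chr10:85185099-85185124, minus strand: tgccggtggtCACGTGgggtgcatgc
Cry1, E-box variant, 79 bases before the start, chr10:85185118-85185143, minus strand: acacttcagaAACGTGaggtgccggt
Cry2, E-box variant, 166 bases before the start, chr2:92434220-92434245, minus strand: acatggtgggAACGTGagggggcgga
Nr1d1, E-box variant, 28 bases before the start, chr11:98775390-98775415, minus strand: cacagatctcAACGTGccggctgctg

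The E-box thus stood in the windows of 2 genes, Per1 and Cry1, and in 7.15% of all 32851 windows. The variant stood in 3 genes, Cry1, Cry2 and Nr1d1, and in 4.68% of all windows. The D-box stood in Per3 alone and in 0.938% of all windows, and its variant in Per1 alone and in 0.743%. The cyclic AMP element and the ROR half-site, found in 1.79% and 2.61% of all windows, stood in none of these 11. The windows of Nr1d2, Dbp and Clock held none of the 6 motifs. A match describes letters and not a site in use.

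The libraries held between 38429786 and 48690591 fragments; CPM is the usual count scaled to these totals. Markers of DP cells were abundant, with Cd4 between 621 and 715 CPM and Rag1 between 802 and 1169 CPM. Together the 9 markers summed to between 4129 and 5020 CPM, highest in WT replicate 2. All 9 were higher in WT replicate 2 than in WT replicate 1. Of the 9 markers 2 were called, both lower in cKO (1.57% of all genes): Cd8a, a chain of the CD8 coreceptor (log2 fold change -0.54, adjusted p-value by DESeq2 1.21e-05), and Rag1, which cuts antigen receptor genes for recombination (-0.31, 0.0499). The edgeR test called 0 of the 9 (0.654% of all genes), of which 2 had an unadjusted p-value under 0.05 (15.6% of all genes), and the part of this difference in the values of the clock genes was not tested. The 6 erythroid markers summed to at most 0.729 CPM, the 6 myeloid markers to at most 11.9 CPM and the 6 B cell markers to at most 14.2 CPM. The 6 markers of the double negative stage summed to between 26.8 and 33.7 CPM. The 7 stromal and endothelial markers summed to between 361 and 417 CPM. Of these, 1 gene had a mean of 392 CPM and 6 had means below 1 CPM. The 9 markers of mature single positive cells summed to between 508 and 580 CPM, and per the methods for other assays of the study DP cells were captured by CD4, which such cells can carry. WT replicate 1 stood apart from the other 3 libraries in 2 respects. Its level of Xist, which is made from the inactive X chromosome of female cells, was 172 CPM against at most 2.36 CPM, although the methods give mice of matched sex, and its 10 proliferation genes summed to 370 CPM against 570 to 682 CPM. Tox4 itself was at 74.0 and 70.3 CPM in WT and at 59.3 and 57.2 CPM in cKO over the whole locus, of which the deleted exons are a part (log2 fold change -0.31 with a standard error of 0.0998; adjusted p-value by DESeq2 0.0453). The edgeR adjusted p-value was 0.122, and the call was made in none of the 4 fits that each left out 1 library. It was also lost with limma voom, total count factors, independent filtering off and the replicate block.

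No difference between genotypes was called for any of the 10 clock genes. Genes were called where DESeq2 gave an adjusted p-value below 0.05, the fold reached 1.2 and the mean reached 1 CPM, as it did in all 10 genes. In bulk cells, fewer cells of a type and less RNA per cell cannot be told apart. The same criteria called 431 of 11625 genes, or 3.71%, at that level. The edgeR quasi-likelihood test called 0 of the 10 genes, and of all genes 0.654% (0.508% higher and 0.146% lower in cKO). The estimates were spread to both sides, with 5 genes above and 5 below 0, and their median log2 fold change was -0.03 beside 0.00 for all 11625 genes. Before adjustment 4 of the 10 genes, Per3, Cry1, Nr1d1 and Nr1d2, had a p-value under 0.05 with DESeq2 and the same 4 with edgeR, against 13.5% and 15.6% of all genes. That count was between 0 and 2 when 1 library was left out. The genotypes did not overlap in 7 of the 10 genes, against 48.9% of all genes. In 3 of the 7 the cKO values were the higher ones (24.9% of all genes) and in 4 the lower ones (24.0%).

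**Figure D1:**
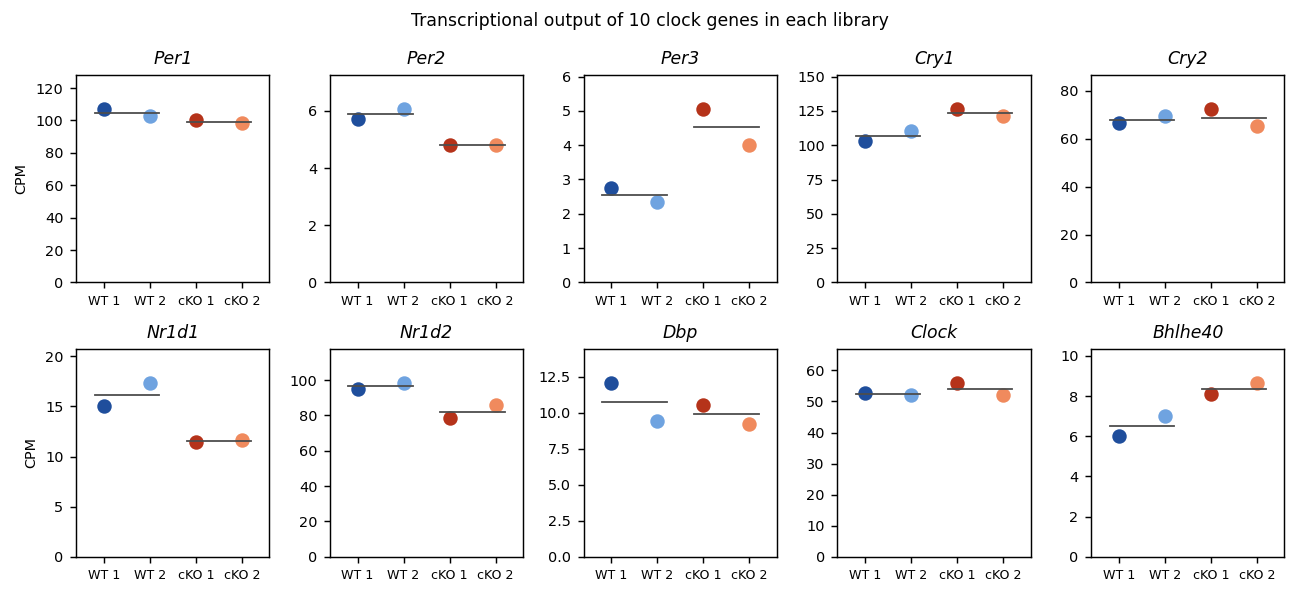
CPM of each of the 10 clock genes in the 4 libraries, with 1 panel per gene, a linear axis from 0 in each, points for libraries and a line for the mean of each genotype. The genotypes are separated in Per1, Per2, Per3, Cry1, Nr1d1, Nr1d2 and Bhlhe40, and overlap in Cry2, Dbp and Clock.

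Within the negative limb, the Period genes differed most among themselves. Per1 (GRCm38 chromosome 11, 69098949 to 69109957, plus strand), the Period gene that responds most directly to acute signals, was at 107 and 103 CPM in WT and at 100 and 98.4 CPM in cKO. The 4 values lay within 1.09-fold of each other, with both cKO libraries below both WT libraries by a small margin. The log2 fold change was -0.08 (standard error 0.088, adjusted p-value by DESeq2 0.781), and its 95% interval, taken for the single gene without adjustment, ran from 0.838-fold to 1.06-fold.

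Per2 (chromosome 1, 91415982 to 91459328, minus strand) encodes the Period protein on which rhythms of whole animals depend strongly. It was at 5.72 and 6.06 CPM in WT and at 4.81 and 4.82 CPM in cKO. The cKO libraries were thus both lower and nearly equal, but they rested on 185 and 191.5 fragments, and the WT libraries on 244 and 295. The log2 fold change was -0.29 (standard error 0.27, adjusted p-value by DESeq2 0.73), with an interval from 0.565-fold to 1.18-fold that holds both a sizeable decrease and a small increase.

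Per3 (chromosome 4, 151003655 to 151044665, minus strand), which carries the pair of D-boxes printed above and is dispensable for the core rhythm, had the widest range of the 10 genes. It was at 2.74 and 2.34 CPM in WT and at 5.05 and 4.00 CPM in cKO, from 117, 114, 194 and 159 fragments. Neither cKO value reached down to a WT value, and the highest was 2.16 times the lowest. The mean was 2.54 ± 0.285 CPM in WT and 4.52 ± 0.742 CPM in cKO (SD, n = 2). The log2 fold change of 0.83 (standard error 0.34) did not pass adjustment over all genes, with a DESeq2 adjusted p-value of 0.18 and an edgeR adjusted p-value of 0.189. It was between 0.66 and 0.98 when each library was left out in turn, and its interval ran from 1.12-fold to 2.82-fold.

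The Cryptochromes are the main repressors of CLOCK and BMAL1. Cry1 (chromosome 10, 85131700 to 85185054, minus strand) was at 103 and 110.5 CPM in WT and at 126 and 121 CPM in cKO. Both cKO libraries were higher, the log2 fold change was 0.21 (standard error 0.0893, adjusted p-value by DESeq2 0.2), and the interval ran from 1.03-fold to 1.31-fold. Cry2 (chromosome 2, 92403647 to 92434069, minus strand) was at 66.7 and 69.4 CPM in WT and at 72.4 and 65.3 CPM in cKO, so that the cKO libraries enclosed both WT libraries. Its log2 fold change was 0.01 (standard error 0.103, adjusted p-value by DESeq2 0.981), with an interval from 0.878-fold to 1.16-fold. On the other strand, D930015M05Rik covers 77.0% of Cry2 and was at a mean of 0.0773 CPM beside 68.4 CPM for Cry2.

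The REV-ERB genes had lower values in both cKO libraries. Nr1d1 (chromosome 11, 98767932 to 98775377, minus strand) encodes REV-ERBα, a haem-binding repressor that also acts on metabolic genes. It was at 15.1 and 17.3 CPM in WT and at 11.4 and 11.6 CPM in cKO, from between 440 and 842 fragments. The genotypes did not overlap, and the difference of their mean log2 values, -0.47, was larger than the difference between the WT libraries, 0.19. The mean was 16.2 ± 1.58 CPM in WT and 11.5 ± 0.12 CPM in cKO (SD, n = 2).

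For Nr1d1 the log2 fold change was -0.49 (standard error 0.181). Its adjusted p-value by DESeq2, 0.111, was the lowest among the 10 genes, beside an edgeR adjusted p-value of 0.167. The interval ran from 0.556-fold to 0.91-fold, and the estimate lay between -0.60 and -0.38 when each library was left out. The last 1075 bp of Nr1d1, 14.4% of the gene, overlap the thyroid hormone receptor gene Thra on the opposite strand. Thra was at 49.2 and 45.7 CPM in WT and at 41.2 and 39.7 CPM in cKO (log2 fold change -0.23, DESeq2 adjusted p-value 0.319). Both genes thus had lower values in cKO without a call, and their share of common fragments was not tested.

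Nr1d2 (chromosome 14, 18204056 to 18239106, minus strand), the gene of REV-ERBβ, partly redundant with REV-ERBα, lies on another chromosome and overlaps no other gene of the table. It was at 94.9 and 98.1 CPM in WT and at 78.5 and 85.8 CPM in cKO. The cKO libraries were again both lower, with a log2 fold change of -0.23 (standard error 0.0963; adjusted p-value by DESeq2 0.179) and an interval from 0.746-fold to 0.969-fold. The estimate was between -0.31 and -0.16 when each library was left out.

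Dbp (chromosome 7, 45705247 to 45710203, plus strand), a transcription factor of the clock output and among the most strongly rhythmic genes of many tissues, was at 12.0 and 9.43 CPM in WT and at 10.6 and 9.23 CPM in cKO. WT replicate 1 was the highest and cKO replicate 2 the lowest, within 1.3-fold, and the larger gap lay between the WT libraries. The log2 fold change was -0.12 (standard error 0.216, adjusted p-value by DESeq2 0.888), and it became 0.06 without WT replicate 1. Its last 741 bp, 14.9% of the gene, overlap Sphk2 on the opposite strand, which was at a mean of 43.4 CPM.

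Clock (chromosome 5, 76209868 to 76304792, minus strand), whose product binds E-boxes together with BMAL1, was the steadiest of the 10 genes across libraries. It was at 52.8 and 52.2 CPM in WT and at 55.8 and 52.1 CPM in cKO, within 1.07-fold, with cKO libraries on both sides of the WT values. The log2 fold change was 0.04 (standard error 0.106, adjusted p-value by DESeq2 0.941), with an interval from 0.887-fold to 1.18-fold. Bhlhe40 (chromosome 6, 108660629 to 108666925, plus strand), an E-box repressor that also shapes T cell responses, was at 6.03 and 7.0 CPM in WT and at 8.12 and 8.63 CPM in cKO. Both cKO libraries were higher, from between 257 and 343 fragments, but the log2 fold change of 0.36 (standard error 0.237) came with an adjusted p-value by DESeq2 of 0.549. The interval from 0.929-fold to 1.77-fold holds no difference as well as a clear increase.

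**Figure D2:**
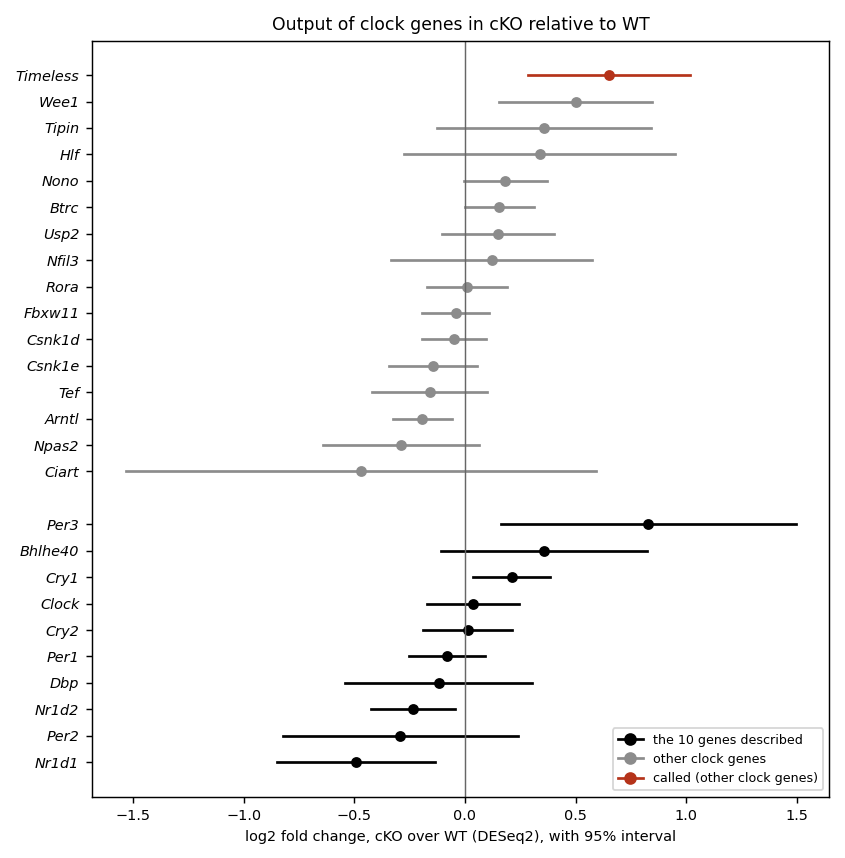
Log2 fold change of cKO over WT by DESeq2, with unadjusted 95% intervals, for the 10 clock genes (black) and 16 other clock genes with a mean of at least 1 CPM (grey, red where called). Timeless is the single called gene; Per3 at 0.83 and Nr1d1 at -0.49 are the outermost of the 10 genes.

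Single libraries were compared further, since rhythmic genes could differ between mice killed at different hours. Over the 4 libraries, the highest value of a clock gene was a median of 1.25 times its lowest, and over all 11625 genes 1.22 times. Between the WT libraries the median absolute log2 difference of the 10 genes was 0.09, and between the cKO libraries it was also 0.09, beside 0.11 and 0.12 for all genes. WT replicate 2 was above WT replicate 1 in 6 of the 10 genes, and cKO replicate 2 above cKO replicate 1 in 4.

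Genes that peak in opposite phases in many tissues were set against each other within a library. Nr1d1 had 1.05% and 1.27% of the CPM of Arntl in WT and 0.934% and 0.946% in cKO. Dbp had 0.84% and 0.691% of it in WT and 0.862% and 0.752% in cKO, so the genotypes overlapped for Dbp and not for Nr1d1. Nr1d2 had 6.62% and 7.19% of it in WT and 6.40% and 6.99% in cKO, and overlapped too. Cry1 had 683% and 639% of the CPM of Nr1d1 in WT and 1102% and 1044% in cKO. These ratios are a description, with no test.

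The fit was repeated without each library to find estimates that turned. Per1, Per2, Per3, Cry1, Nr1d1, Nr1d2 and Bhlhe40 kept their direction in the 4 fits. In these genes the genotypes did not overlap in CPM, so that a kept direction adds little. Cry2 ranged from -0.05 to 0.08, Dbp from -0.28 to 0.06 and Clock from -0.0062 to 0.08. None of the 10 genes was called in any of these fits, in which the lowest DESeq2 adjusted p-value was 0.239.

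**Figure D3:**
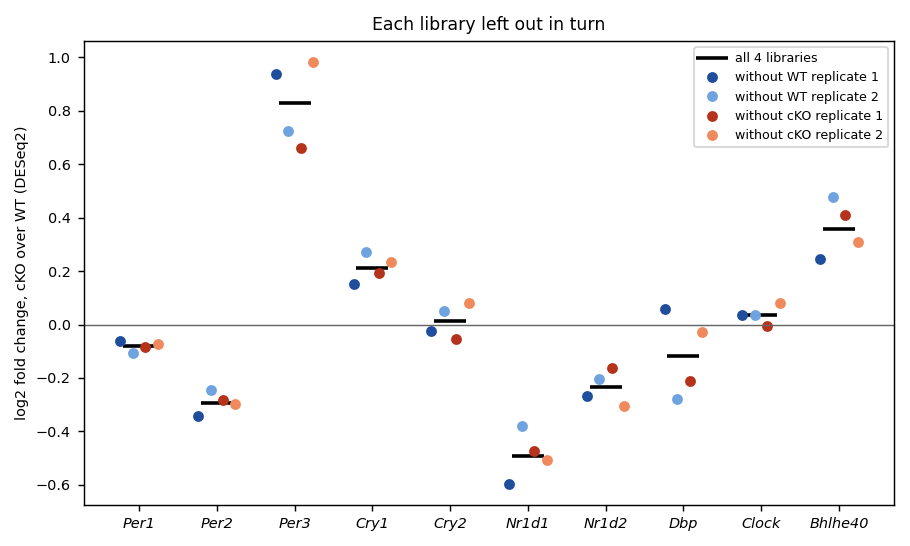
Log2 fold change of cKO over WT by DESeq2 for each of the 10 clock genes with all 4 libraries (black bar) and with each library left out (coloured points). The estimates for Cry2, Dbp and Clock lie on both sides of 0, and those for Per3 stay between 0.66 and 0.98.

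Levels were compared between genes as CPM per kb of gene, introns included. Per1 was the highest of the 10 genes at between 8.93 and 9.72 CPM per kb, apart from all others and ranked 725 of the 11625 genes with at least 1 CPM. Nr1d2, Cry2, Cry1, Dbp and Nr1d1 followed with means of 2.55, 2.25, 2.16, 2.08 and 1.86 CPM per kb, and each overlapped its neighbour in this order over the 4 libraries. Bhlhe40, at a mean of 1.18 CPM per kb, lay below the median of all genes at that level, 1.46, and Clock followed at 0.561. Per2 and Per3 were lowest at 0.123 and 0.0862 CPM per kb and overlapped each other. Within a library, Per1 exceeded Per2 by between 66.7 and 81.8 times per kb, whereas Cry1 and Cry2 stood between 0.88 and 1.06 to 1.

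**Figure D4:**
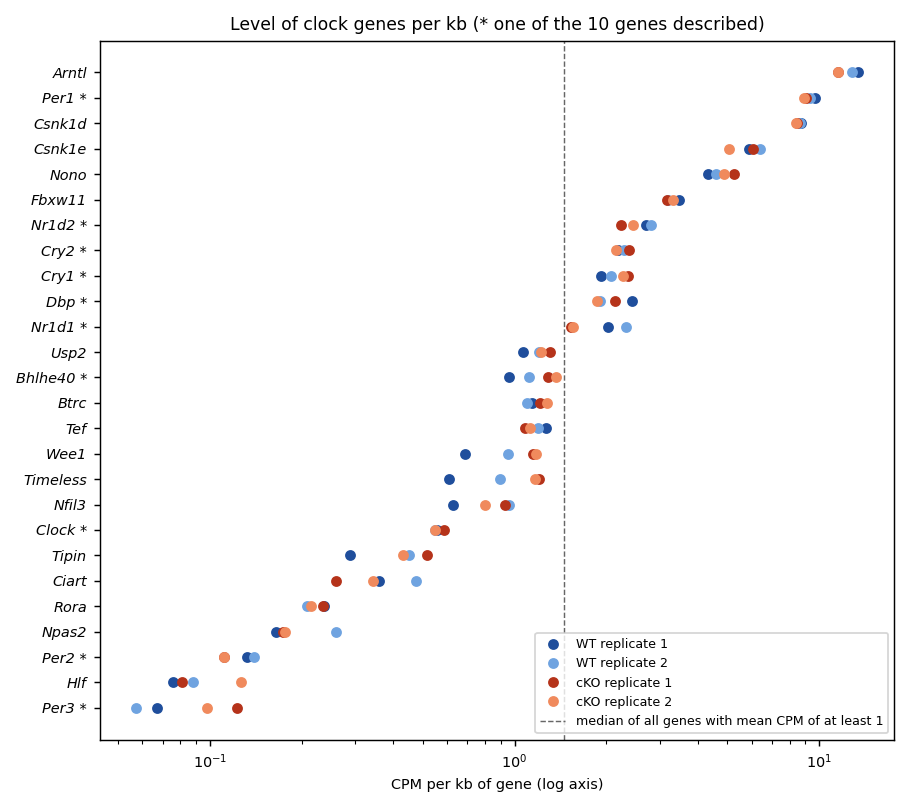
CPM per kb of gene on a log axis for 26 clock genes with a mean of at least 1 CPM, with 1 point per library and a dashed line at the median of all genes at that level. Arntl and Per1 are at the top, and Per2, Hlf and Per3 at the bottom.

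Of 20 other clock genes 16 had a mean of at least 1 CPM, of which 1 was called as increased and 0 as decreased (2.14% and 1.57% of all genes). Arntl, which encodes BMAL1, stood out by its level. It was at 1433 and 1364 CPM in WT and at 1226 and 1228 CPM in cKO, a mean of 12.3 CPM per kb over its 107 kb, which was between 19.6 and 24.2 times that of its partner Clock. Both cKO libraries were lower, by a log2 fold change of -0.19 (standard error 0.067; adjusted p-value by DESeq2 0.0816, edgeR adjusted p-value 0.226), with an interval from 0.799-fold to 0.959-fold. Npas2, a paralog of Clock, was at 27.9 and 44.0 CPM in WT and at 29.3 and 29.8 CPM in cKO. It therefore differed more between the WT libraries than between genotypes (log2 fold change -0.29, DESeq2 adjusted p-value 0.509); without WT replicate 1 it was called at -0.59 (adjusted p-value 0.045), and without WT replicate 2 it was 0.08.

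Rora, whose product acts opposite to REV-ERB, was at 175 and 153 CPM in WT and at 172 and 157 CPM in cKO. It spans 734 kb, so that its level was 0.224 CPM per kb. The genotypes overlapped, with a log2 fold change of 0.01.

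Among factors that share D-boxes with DBP, Tef was at 30.8 and 28.8 CPM in WT and at 26.2 and 27.2 CPM in cKO, both cKO libraries lower (log2 fold change -0.16, DESeq2 adjusted p-value 0.682). Hlf was at 4.13 and 4.79 CPM in WT and at 4.40 and 6.89 CPM in cKO, and the D-box repressor Nfil3 at 8.68 and 13.3 CPM in WT and at 12.9 and 11.1 CPM in cKO. Both overlapped between genotypes. The repressor Ciart had between 37 and 86 fragments per library and values of 1.34, 1.77, 0.963 and 1.28 CPM in the order WT replicates 1 and 2 and cKO replicates 1 and 2. Bhlhe41, the paralog of Bhlhe40, had at most 5 fragments in any library. The Period kinases Csnk1d and Csnk1e were at between 248 and 259 CPM and between 123 and 155 CPM, with log2 fold changes of -0.05 and -0.15 and no call.

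Timeless was the called gene. Despite its name, which comes from the fly clock, its mammalian product is known mainly as a component of replication forks. It was at 12.7 and 18.6 CPM in WT and at 25.1 and 24.3 CPM in cKO, and the genotypes did not overlap. It was increased by a log2 fold change of 0.65 (standard error 0.187; adjusted p-value by DESeq2 0.0167), and the edgeR adjusted p-value was 0.169. Without WT replicate 1, the library with the lowest proliferation genes, the log2 fold change was 0.40 and not called (adjusted p-value 0.698). Without cKO replicate 1 it was 0.64 and without cKO replicate 2 it was 0.67, neither of them called, and without WT replicate 2 it was 0.96 and called. Its partner Tipin and the cell cycle kinase Wee1, itself a target of CLOCK and BMAL1 in liver, were also lowest in WT replicate 1, at 6.85 and 14.6 CPM. With all 4 libraries Wee1 was not called (log2 fold change 0.50), and without WT replicate 2 its log2 fold change was 0.76. Of the 10 proliferation genes 9 had a log2 fold change above 0, with a median of 0.38 beside 0.00 for all genes. Among them 1 was called as increased (2.14% of all genes), Mybl2 (0.52, adjusted p-value by DESeq2 0.0375). With edgeR 0 of the 10 were called (0.654% of all genes), and 2 had an unadjusted p-value under 0.05, against 15.6% of all genes. In 5 of the 10 the cKO values were the higher ones without overlap (24.9% of all genes) and in 0 the lower ones. The part of cell cycle differences between libraries in these values was not tested.

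Per1 also belongs to the genes that respond to acute signals and to glucocorticoids, which themselves follow the day, so both groups were counted beside it. Of 24 immediate early genes 21 had a mean of at least 1 CPM, with 2 called as increased (Fosl2, Nr4a3) and 4 as decreased (Jun, Egr1, Btg2, Zfp36), and a median log2 fold change of -0.27. Over all genes 2.14% were called as increased and 1.57% as decreased. Egr1, a transcription factor induced within minutes of signalling, was at 19.1 and 16.9 CPM in WT and at 10.6 and 11.5 CPM in cKO, a log2 fold change of -0.70 (standard error 0.178; adjusted p-value by DESeq2 0.00406). The edgeR test called 0 of these 21 genes (0.654% of all genes; 10 had an unadjusted p-value under 0.05, against 15.6% of all genes), and each of the 6 genes lost its call in at least 2 of the 4 fits with 1 library left out.

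Of 15 glucocorticoid targets 11 had a mean of at least 1 CPM, with 2 called as increased (Fkbp5, Il7r) and 3 as decreased (Ddit4, Zbtb16, Nfkbia), and a median log2 fold change of -0.14, beside the same 2.14% and 1.57% over all genes. The edgeR test called Fkbp5 as increased and Ddit4 as decreased (0.508% and 0.146% of all genes). Fkbp5, a chaperone that dampens the glucocorticoid receptor, was at 257 and 282 CPM in WT and at 369.9 and 367 CPM in cKO. It increased by a log2 fold change of 0.45 (standard error 0.0791; adjusted p-value by DESeq2 2.98e-06), with an edgeR adjusted p-value of 0.0441. Ddit4, an inhibitor of mTORC1, decreased by a log2 fold change of -0.47 (standard error 0.0989; adjusted p-value by DESeq2 1.92e-04, edgeR adjusted p-value 0.0381). Fkbp5 was called in all 4 fits with 1 library left out, Ddit4 not without cKO replicate 1 or cKO replicate 2. Zbtb16 was called in 2 of these fits, Nfkbia in 1 and Il7r in 0. Per1 stayed within 1.09-fold across libraries beside them.

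The genes whose profile over the 4 libraries was nearest to that of Per3, by Euclidean distance of centred log2 CPM among 9456 genes with a mean of at least 5 CPM, were Gm16576, Nsmf, Hexdc, Ap5z1 and Bcl2. The distances were between 0.0716 and 0.164. Bcl2, which protects T cells from apoptosis, was at 102 CPM in both WT libraries and at 176 and 141 CPM in cKO. Its log2 fold change was 0.64 (standard error 0.105, adjusted p-value by DESeq2 4.01e-07 and by limma voom 0.0519). Bcl2 was the farthest of these genes in profile. Gm16576, Nsmf, Hexdc and Ap5z1 had DESeq2 adjusted p-values of 0.0499, 0.0416, 0.151 and 0.00133. These genes were picked for their likeness over 4 libraries, so their values are a description.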

How the data were processed

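Per the study's methods and the labels, strand-specific TTchem-seq libraries were filtered with fastp 0.13.1 and aligned with STAR 2.7.9a to GRCm38 with RefGene genes. The methods take counts from STAR, whereas the labels' processing notes also name featureCounts 1.6.1, whose column layout the table has. The methods state depletion of ribosomal RNA, and the labels capture of polyadenylated RNA. The deposited table holds expected counts, fragments per gene with introns, 8.61% of the values being fractional, made by the authors without spike-in scaling. Duplicates were marked per the methods, which do not say whether they were left out of the counts, and fragments are not independent molecules. The other deposited column used, gene length, served for CPM per kb.

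Here counts were rounded and tested with the DESeq2 1.42.0 Wald test (default size factors, no covariates, Benjamini-Hochberg adjustment over all genes, independent filtering target 0.1), in R 4.3.3. CPM used the deposited totals, and log2 CPM a pseudocount of 0.5. Alternatives were edgeR 4.0.16, limma 3.58.1 voom, other scalings and filters, a replicate block and each library left out. The tests were tried on simulated data. Nothing in the sources says that same-numbered libraries are paired. Replicates differed beyond counting noise, with chi-square values per degree of freedom of 40.7 (WT) and 30.7 (cKO). P-values rest on the spread between 2 libraries per genotype, with each gene's estimate of spread drawn towards a trend over all genes. Tables and figures used matplotlib 3.10.9, scipy 1.17.1, numpy 2.4.6 and pandas 2.3.3 under Python 3.11.15.

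The members and lists were chosen with earlier results of these data known, and the motifs after the counts had been seen. Genes were named by a rule: the 10 members, Tox4, 10 other clock genes and called ones of that list, called immediate early genes and glucocorticoid targets, and the 5 genes nearest in profile to the widest-ranging member. Markers, Xist, overlapping genes, Tipin, Wee1 and Fbxw11 were named outside this rule, after their values were seen. Lists were described by counts and medians, with no set test. Some clock genes are not reported here and were left out of the lists and figures.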

Additional observations from a re-analysis of the deposited data

How the results depend on the processing

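None of the 10 clock genes was called under any of the 13 alternatives, the lowest adjusted p-value being 0.0898, and without 1 library 0.239. The number with an unadjusted p-value under 0.05, 4, was counted under 7 settings chosen after seeing the data; it was 4 with edgeR and limma voom, 1 with the replicate block, and 0 to 2 without 1 library. Their median log2 fold change stayed within -0.038 and -0.031, and without 1 library within -0.070 and 0.026. The median range of the 10 genes over libraries, 0.31 on the log2 scale, was 0.24 to 0.31 without 1 library. Counts of all called genes, 249 increased and 182 decreased, were 59 and 17 with edgeR, 57 and 16 with limma voom, 106 and 44 where the fold had to reach 1.5, and 121 and 72 with the replicate block; without 1 library they were 61 to 320 and 28 to 126, and the cause was not tested. Same-numbered libraries had a correlation of deviations of -0.03, and with the replicate block the 10 genes stayed without a call, at adjusted p-values of 0.518 or more. The share of fragments in the ribosomal RNA precursor Rn45s did go with the replicate number. It was 2.71% and 2.44% in WT and cKO replicate 1, and 4.30% and 4.05% in WT and cKO replicate 2. Its cause was not tested. Of the other clock genes 1 was called, 0 with edgeR, limma voom or the replicate block, and 0 to 2 without 1 library. A lone library was assumed to vary like those of the other genotype. Direction turned only without 1 library: log2 fold changes ranged from -0.054 to 0.082 for Cry2, -0.28 to 0.058 for Dbp, -0.0062 to 0.081 for Clock, -0.59 to 0.084 for Npas2, -0.079 to 0.097 for Rora, -0.028 to 0.63 for Hlf, -0.16 to 0.47 for Nfil3 and -0.096 to 0.0099 for Fbxw11. Among the 10 genes, Per2 and Per3 had the fewest fragments, 114 to 295 per library.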
